A study of Mus musculus with 16 samples.

Results

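H3K4me3 peaks that lie inside H3K36me3 peaks were taken from a pair of deposited peak lists of immortalized murine mesenchymal stem cells (MSCs). Members were chosen by peak position alone. A member was a peak of H3K4me3 WT replicate 2 on chromosomes 1 to 19 whose midpoint lay inside a peak of H3K36me3 WT replicate 2. This held for 709 of 17755 H3K4me3 peaks, or 3.99%. Such peaks are candidates for promoters inside transcribed genes, and the lists were examined for how far each one lay inside. Most did not lie inside as a whole. Of the 709 members, 56 (7.90%) were enclosed from end to end by the H3K36me3 peak around their midpoint, and 653 (92.1%) reached past at least 1 of its ends. The word internal therefore fitted 56 regions, and the others are called here members at an end of H3K36me3.

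H3K4me3, trimethylation of lysine 4 of histone H3, is laid down by the SET1 and MLL complexes and is concentrated on the nucleosomes around active transcription start sites. H3K36me3 is laid down by SETD2, which travels with elongating RNA polymerase II, and it covers the bodies of transcribed genes, usually starting some distance downstream of the promoter. H3K4me3 within a gene body is known from alternative promoters and from genes that lie within other genes.

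The lines were monoclonal and immortalized, from strain C57BL/6, and were grown in Alpha-MEM with serum. ChIP was done for H3K4me3, H3K36me3 and H3K27me3, beside whole-cell extract. KO lines were Dicer -/- and lacked the ribonuclease that makes mature microRNAs. WT lines were Dicer f/f, with floxed and intact Dicer. Per mark and genotype there were 2 libraries, numbered replicate 1 and 2, and nothing in the labels said that these came from separate clones or cultures, so differences between them may be technical. A monoclonal line stands for 1 founding cell, so a difference between KO and WT lines cannot be told apart from a difference between clones. The identity of the cells could not be checked against marker genes, since no gene annotation of the build of these lists was used here.

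The lists differed in length, and with them the number of places where the marks could meet. On chromosomes 1 to 19 the H3K36me3 lists covered 86.5 and 108.0 Mb in KO replicates 1 and 2, and 106.0 and 173.0 Mb in WT replicates 1 and 2. The H3K4me3 lists covered 31.5 and 51.3 Mb in KO and 24.3 and 42.8 Mb in WT. WT replicate 2, which defined the members, thus had the longest H3K36me3 list, and H3K4me3 was longer in replicate 2 of both genotypes. Read depth is unknown, as the files hold no counts. All positions are mm9 coordinates.

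The rule used both WT replicate 2 lists, so the widths, scores and positions of members in them are given as a description without a test. Member midpoints lay close to the border of H3K36me3. The median distance from the midpoint to the nearer end of the enclosing peak was 500 bp (quartiles 236 and 1053 bp), while the median width of the H3K4me3 peaks was 4389 bp. In 354 members (49.9%) the midpoint was less than 500 bp from an end, in 60 (8.46%) it was 2 to 5 kb away and in 11 (1.55%) 5 kb or more. The member nearest to an end was chr6:125298729-125303400, 4672 bp wide, whose midpoint was at 0 bp from the end of its H3K36me3 peak. The nearest peak left out, chr17:34163780-34165787, was 2008 bp wide and missed it by 1 bp. Within 50 bp of an end there were 51 members and 42 other peaks, so the rule divides a continuous range of positions.

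Members were wide H3K4me3 peaks. Their median width of 4389 bp (quartiles 3220 and 5701 bp) compared with 2112.5 bp (1325 and 2998 bp) for the 17046 other peaks of the list. The peaks most like them are the 3011 other peaks that met an H3K36me3 peak of WT replicate 2 by at least 1 bp outside their midpoint, and these had a median of 3225 bp. The remaining 14035 peaks met no H3K36me3 and had a median of 1853 bp. The authors' score reached 3100, a value shared by many of the strongest peaks, in 581 members (81.9%), in 91.5% of the other peaks that met H3K36me3 and in 47.5% of those that met none. Members were thus wider than both other groups, but reached the shared score of 3100 less often than the other peaks that met H3K36me3.

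**Figure D1:**
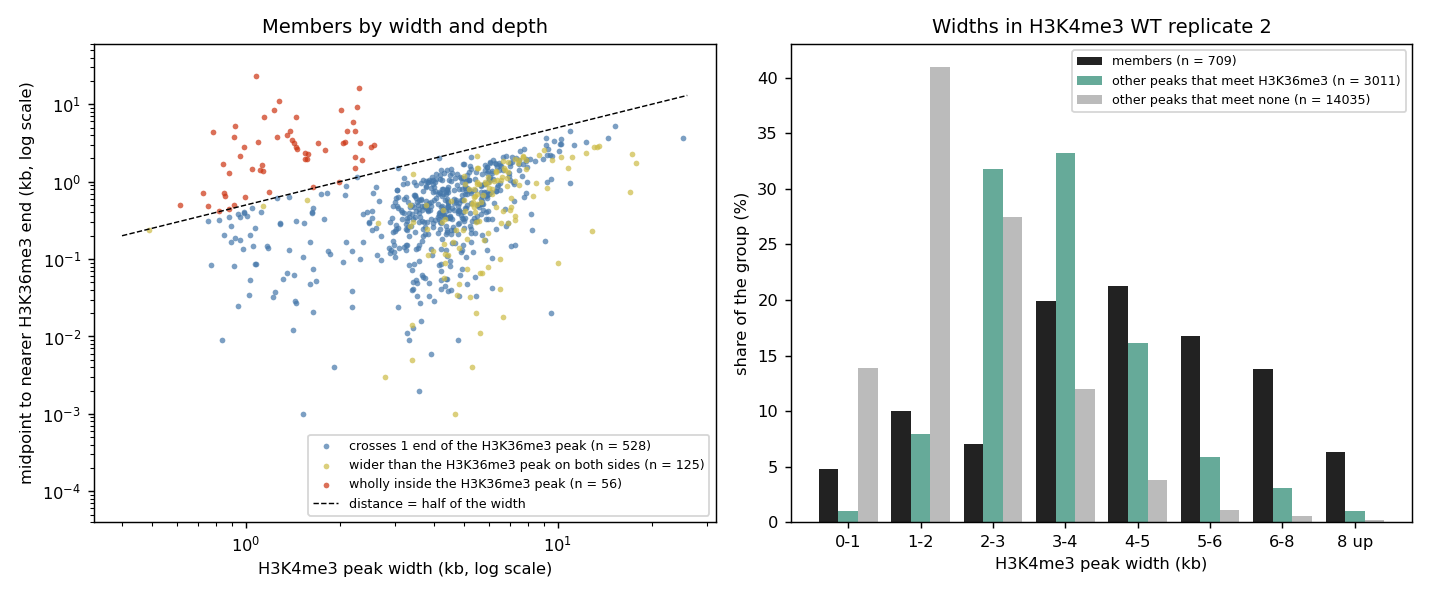
The left panel plots each of the 709 members by H3K4me3 peak width and by the distance from its midpoint to the nearer end of the H3K36me3 peak, both in kb on log scales, with the member at 0 bp drawn at 1 bp. The 56 members wholly inside lie above the dashed line and are narrow, and the 653 others lie on or below it. The right panel gives the share of each group by width in H3K4me3 WT replicate 2, where members peak at 4 to 5 kb and peaks that met no H3K36me3 at 1 to 2 kb.

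The members fell into 3 arrangements. In 528 (74.5%) the H3K4me3 peak crossed 1 end of the H3K36me3 peak, with a median width of 4280 bp beside a median H3K36me3 peak of 9147.5 bp. In 125 (17.6%) the H3K4me3 peak, at a median of 5749 bp, reached past both ends of an H3K36me3 peak with a median of only 2172 bp. The 56 members wholly inside were narrow, which the split itself favours. Their widths had a median of 1367.5 bp and a maximum of 2567 bp, in H3K36me3 peaks with a median of 10939.5 bp. Their median score was 207.4, and 3 of them (5.36%) reached 3100, against 578 (88.5%) of the members at an end. The arrangement with the name's meaning was thus the rarest and the weakest in score.

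H3K36me3 peaks were often broken by short gaps, which bears on what counts as inside. When H3K36me3 peaks of WT replicate 2 less than 1 kb apart were joined, 110 members lay wholly inside, and with gaps under 3 kb joined 182 (25.7%) did. Joining gaps under 10 kb raised this to 270 (38.1%), so most members still reached past an outer end of H3K36me3. The members sat in 688 H3K36me3 peaks, 1.86% of the 36982 in the list. Of these, 667 held 1 member and 21 held 2, and none held more. The enclosing peaks were long, with a median of 7591 bp counted per member against 2290 bp over the whole list.

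The first 3 of the 21 H3K36me3 peaks with 2 members show different arrangements. The peak chr1:45535639-45559254 enclosed the narrow chr1:45551760-45553207 and was crossed at its end by the wide chr1:45554480-45561457, 1272 bp away. The peak chr4:88941426-88956727 had the same layout, with chr4:88949337-88950480 inside and chr4:88953554-88957795 across its end. In both, the narrow member was not listed in KO replicate 1 or WT replicate 1, while the wide one was listed in every library. The peak chr3:68809544-68848353 instead carried a wide member across each end, chr3:68806944-68817047 and chr3:68842911-68850422.

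Neighbouring H3K4me3 was closer to members than to other peaks. The median gap to the nearest other peak of the list was 11426 bp for members, 16045 bp for other peaks that met H3K36me3 and 21109 bp for those that met none. Members wholly inside had a median gap of 2135.5 bp, and 32 of the 56 (57.1%) had another H3K4me3 peak within 3 kb. Of the members at an end, 142 (21.7%) had one within 3 kb. More of the enclosed peaks than of the others therefore lay beside another H3K4me3 peak.

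The 5 members farthest from an end of H3K36me3 were all wholly inside. The deepest, chr17:75029573-75030649, lay 23178 bp from the nearer end of a 74378 bp H3K36me3 peak, and the nearest other H3K4me3 peak was 85365 bp away. Its H3K4me3 spanned 542 and 1077 bp in KO replicates 1 and 2, against 0 and 1077 bp in WT replicates 1 and 2. H3K36me3 covered all 1077 bp in each of the 4 libraries, so the enclosure held in both genotypes while the H3K4me3 peak was not listed in WT replicate 1. The second, chr9:79455959-79458261, was 16178 bp from an end, and its H3K4me3 spanned 0 and 858 bp in KO, against 0 and 2303 bp in WT. The H3K36me3 there spanned 0 and 0 bp in KO, against 310 and 2303 bp in WT, so the whole peak was enclosed in WT replicate 2 alone.

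The other deep members lay 8349 to 10924 bp from an end. At chr19:32755045-32756315, H3K4me3 spanned 691 and 1089 bp in KO, against 0 and 1271 bp in WT, while H3K36me3 spanned 581 and 1271 bp in KO and 1271 bp in both WT libraries. At chr19:44376582-44378842 H3K36me3 covered all 2261 bp in every library, but H3K4me3 was listed in no library other than WT replicate 2. Its nearest other H3K4me3 peak there was 440 bp away. At chr5:77391209-77392441 H3K4me3 spanned 0 and 1233 bp in KO, against 0 and 1233 bp in WT. None of the 5 deepest members was listed in H3K4me3 WT replicate 1.

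The members' state in the other H3K4me3 lists was read next, with listing defined as an overlap of at least 1 bp. Of the 709 members, 600 (84.6%) were listed in KO replicate 1, 677 (95.5%) in KO replicate 2 and 592 (83.5%) in WT replicate 1. Over all 17755 peaks these shares were 75.8%, 93.5% and 63.9%. All 3 lists held 576 members (81.2%, 95% Wilson interval 78.2% to 83.9%), against 61.0% of all peaks. Intervals here cover counting error only, and members are not replicates of a condition. A peak that is not listed may mean fewer cells with the mark or less mark per cell, which cannot be told apart in bulk chromatin.

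The shares differed by width and by whether a peak met H3K36me3. Among the 3011 other peaks that met H3K36me3, 95.4%, 98.9% and 93.0% were listed in KO replicate 1, KO replicate 2 and WT replicate 1, above the members in each library. Within width bands, members of 4 to 6 kb were listed in 97.8%, 100.0% and 99.6% of cases, and all other peaks of that width in 97.6%, 99.8% and 99.2%. Members under 2 kb were listed in 22.9%, 71.4% and 8.57% of cases, and other peaks of that width in 52.9%, 86.7% and 26.8%. Wide members were thus listed about as often as other wide peaks, and narrow members less often than other narrow peaks in each of the 3 libraries.

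Of the members wholly inside, 42 were among the 105 members under 2 kb and 14 were 2 to 4 kb wide. Of these 56, 14 (25.0%, interval 15.5% to 37.7%) were listed in KO replicate 1, 43 (76.8%, 64.2% to 85.9%) in KO replicate 2 and 4 (7.14%, 2.81% to 17.0%) in WT replicate 1. Of the 653 members at an end, 586 (89.7%), 634 (97.1%) and 588 (90.0%) were. All 3 lists held 3 of the 56 (5.36%) and 573 of the 653 (87.7%). KO replicate 2 was the only other list with the peak for 29 of the 56 (51.8%), and 12 (21.4%) were in none. The enclosed peaks thus recurred mainly in KO replicate 2 and seldom in WT replicate 1. All members under 2 kb, enclosed or not, had similar shares, at 22.9%, 71.4% and 8.57%, so width and enclosure were not separated. The H3K4me3 lists of replicate 1 were the shorter ones, and the part of list length in these shares was not tested.

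**Figure D2:**
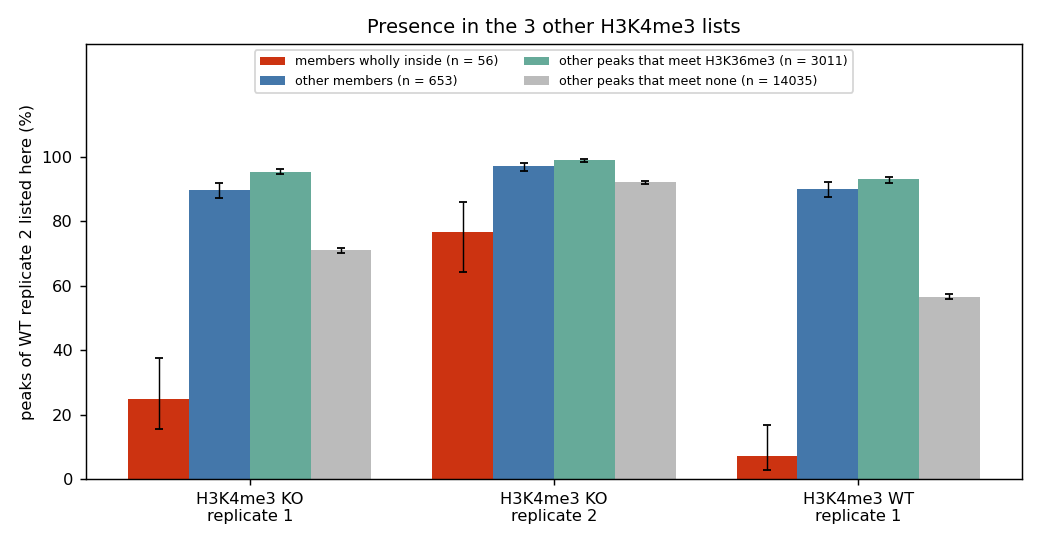
Bars give the share (%) of H3K4me3 WT replicate 2 peaks that were listed in each of the 3 other H3K4me3 libraries, with 95% Wilson intervals, for members wholly inside H3K36me3, the other members, and other peaks with and without H3K36me3. Members wholly inside are the lowest group in every library, at 25.0% and 76.8% in KO and 7.14% in WT replicate 1.

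Where a member was listed elsewhere, the H3K4me3 that met it was narrower in replicate 1. Widths are summed over all peaks of a list that met the member. The 600 members listed in KO replicate 1 had a median summed width of 3302 bp there, and the 592 listed in WT replicate 1 had 3466 bp. The same members had medians of 4671.5 and 4766 bp in WT replicate 2. In KO replicate 2 the 677 listed members had a median of 4413 bp, against 4430 bp in WT replicate 2. Outside the rule, median summed widths of listed members were thus lower in both replicate 1 lists than in KO replicate 2. Only 1 WT library lay outside the rule, so the widths are not read by genotype.

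Of all members, 31 (4.37%) were listed in none of the 3 other libraries, against 6.19% of the other peaks. The widest of them was chr19:44376582-44378842, already described. The next, chr5:38944211-38946260, was 2050 bp wide with its midpoint 92 bp inside H3K36me3. The others were chr19:44176847-44178763, chr15:85489852-85491646 and chr6:29301532-29303163, at 1917, 1795 and 1632 bp. Each of these named regions had another H3K4me3 peak of WT replicate 2 within 4 to 1573 bp, so they lay beside other H3K4me3. For the widest the distance was 440 bp.

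H3K36me3 itself shifted around the members between libraries. The midpoint lay inside an H3K36me3 peak for 283 members (39.9%) in KO replicate 1, 384 (54.2%) in KO replicate 2 and 417 (58.8%) in WT replicate 1. Over all 17755 peaks the shares were 1.74%, 2.32% and 2.50%. All 3 libraries placed the midpoint inside for 244 members (34.4%, interval 31.0% to 38.0%), against 1.40% of all peaks, and none of them did for 223 (31.5%). The rule took every peak with H3K36me3 at its midpoint in WT replicate 2, so the contrast with all peaks was largely set by the rule. Of the 17046 other peaks, 4 had the midpoint inside in all 3 libraries. Members with H3K36me3 at the midpoint in every library and members with it in WT replicate 2 alone were similar in number. Since WT has a single library outside the rule, no test between the genotypes is possible.

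Where H3K36me3 was absent from the midpoint it was often near. H3K36me3 came within 1 kb of the midpoint for 432 members (60.9%) in KO replicate 1, 550 (77.6%) in KO replicate 2 and 564 (79.5%) in WT replicate 1. The upper quartile of the distance from midpoint to H3K36me3 was 3006, 809 and 617 bp in the same order. Of a member's width, H3K36me3 covered a median of 33.9% and 47.9% in KO and of 50.9% in WT replicate 1, and 62.7% in WT replicate 2, where the rule fixed the midpoint. For the other peaks that met H3K36me3 in WT replicate 2, the median was 0% in each of the 3 other libraries. By the rule, those peaks lacked H3K36me3 at the midpoint in WT replicate 2.

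Members wholly inside lay in gaps of H3K36me3 in the other libraries more often than members at an end. The split itself favours this contrast, as members wholly inside had H3K36me3 on both sides in WT replicate 2 by definition. The midpoint of members wholly inside was inside H3K36me3 for 22 (39.3%) and 28 (50.0%) of the 56 in KO and for 38 (67.9%) in WT replicate 1. It fell in a gap with H3K36me3 peaks within 3 kb on both sides for 10 (17.9%) and 13 (23.2%) in KO and for 10 (17.9%) in WT replicate 1. Among members at an end such gaps were rarer, at 4.90% and 5.05% in KO and 4.59% in WT replicate 1, and a peak on 1 side was more common, at 29.6%, 26.6% and 25.0%. No H3K36me3 lay within 3 kb of the midpoint for 11 and 2 of the 56 in KO and for 7 in WT replicate 1.

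**Figure D3:**
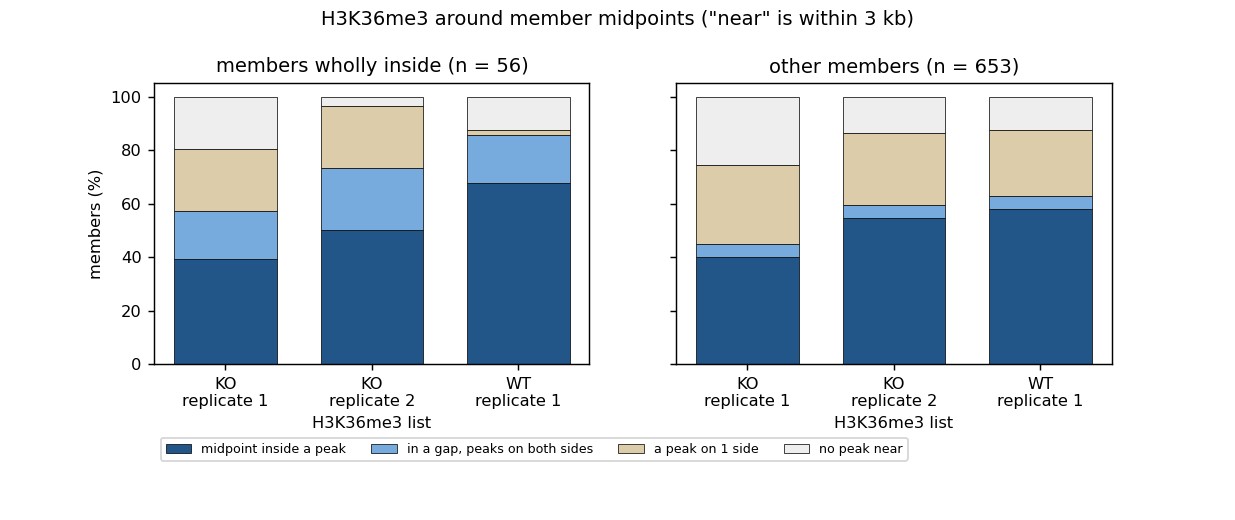
Stacked bars give the share (%) of members by the position of their midpoint in the H3K36me3 list of KO replicate 1, KO replicate 2 and WT replicate 1, for the 56 members wholly inside and the 653 others. The midpoint is inside a peak for 39.3% to 67.9% of the members wholly inside and 40.0% to 58.0% of the others. Gaps with peaks on both sides are more frequent among members wholly inside, a contrast that the split itself favours.

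A small set of members had no H3K36me3 near in any other library. For 48 (6.77%) no H3K36me3 peak lay within 3 kb of the midpoint in the 3 other lists. They made up 21 of the 125 H3K4me3 peaks that reached past both ends of H3K36me3 (16.8%), 26 of the 528 that crossed 1 end (4.92%) and 1 of the 56 wholly inside (1.79%). The enclosing H3K36me3 peaks had a median of 1561 bp for the 21 and of 9179.5 bp for the 26. Of the 48, 31 were listed in all 3 other H3K4me3 libraries, a lower share than the 81.2% of all members. These were 19 of the 21, 12 of the 26 and 0 of the 1 wholly inside. Among all members that reached past both ends 96.0% were listed in all 3, and among those that crossed 1 end 85.8%. The 21 were also wider than the 26, with medians of 5439 and 4324 bp, and the part of width was not tested. The count of 48 has no matching count over other peaks beside it. In each list taken alone, 12.4% to 25.1% of members had no H3K36me3 within 3 kb of the midpoint. Among the other peaks that met H3K36me3 in WT replicate 2 the share was higher in each list, at 26.4% to 40.6%. The rule favours this contrast, and the 48 are not read as a trait of members.

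The widest members were broad H3K4me3 stretches in every library. The broadest, chr15:85493209-85518411, spanned 25203 bp across the start of a 36446 bp H3K36me3 peak. Its H3K4me3 spanned 16412 and 24102 bp in KO, against 21526 and 25203 bp in WT. The H3K36me3 within it spanned 12907 and 16055 bp in KO, against 17219 and 18238 bp in WT. Each mark thus took up a long stretch of this region in each library.

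The next in width were chr3:99050784-99068645, chr18:75522263-75539504, chr2:44958209-44975179 and chr3:58217043-58232285, at 17862, 17242, 16971 and 15243 bp. All 4 were listed in every H3K4me3 library. In the last, H3K36me3 spanned 9485 and 12751 bp in KO, against 12349 and 12788 bp in WT. In the chr2 member it spanned 0 and 0 bp in KO, against 0 and 5761 bp in WT, although H3K4me3 spanned 8897 and 15585 bp in KO, against 8263 and 16971 bp in WT. The H3K36me3 of this broad H3K4me3 peak was therefore listed in WT replicate 2 only.

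The difference lists give each library's peaks over a control that the sources used here do not name. Many of their peaks matched a peak of the library's whole-cell extract list base for base at both ends. This held for 74.6% to 97.8% of their H3K4me3 peaks and 82.1% to 96.2% of their H3K36me3 peaks. Such matches do not show what the control was. The lists were read as KO over WT and WT over KO, which is an assumption. Every direction below rests on this reading. Replicate 2 shares the library that defined the members, so its counts are given without being read.

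In replicate 1, 23 members (3.24%) held an H3K4me3 KO difference peak, against 15.7% of all 17755 peaks and 3.74% of the 3720 that met H3K36me3. A WT difference peak was held by 131 (18.5%), against 9.06% and 13.8%. In replicate 2 the counts were 16 (2.26%) for KO, against 7.31% and 1.42%, and 15 (2.12%) for WT, against 6.84% and 1.59%. A KO difference peak in both replicates occurred in 9 members (1.27%, against 4.74% and 0.995%), and a WT difference peak in both in 6 (0.846%, against 1.45% and 0.753%). No member held a KO difference peak in 1 replicate and a WT difference peak in the other. That count has no share over all peaks beside it and is not read as agreement between replicates.

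Both shares moved with width. Among peaks of 2 to 4 kb, 2.09% of members and 6.16% of other peaks held a KO difference peak in replicate 1, and 16.2% and 11.5% a WT difference peak. Among peaks of 4 to 6 kb, 0.741% of members and 2.45% of other peaks held a KO difference peak in replicate 1, and 21.9% of members and 21.2% of other peaks a WT difference peak. At 6 kb or more, 26.6% of members and 25.1% of other peaks held a WT difference peak. Among peaks under 2 kb, 15.2% of members and 28.4% of other peaks held a KO difference peak, and 2.86% and 3.44% a WT difference peak. In replicate 1, WT difference peaks were thus more common among members than among other peaks at 2 to 4 kb, and closer in share in the other bands. Of the other peaks that met H3K36me3, 24.7% under 2 kb, 2.19% at 2 to 4 kb and 1.06% at 4 to 6 kb held a KO difference peak. At 2 to 6 kb, KO difference peaks were thus about as rare among these peaks as among members. Their WT shares were 3.37%, 10.2%, 21.2% and 28.5%, ordered from the narrowest band to the widest.

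For H3K36me3, 14 members (1.97%) held a KO difference peak in replicate 1, against 0.766% of all peaks, and 82 (11.6%) a WT difference peak, against 1.40%. Most peaks of the list met no H3K36me3, so the 3720 that did are the closer background, with 2.34% and 5.97%. In replicate 2 there were 2 KO (0.282%, against 0.237% of all peaks and 0.457% of the 3720) and 66 WT (9.31%, against 1.84% and 8.55%). In both replicates 0 members held one for KO, which allows a share of up to 0.423%, against 0.0394% and 0.0538%. For WT, 16 (2.26%) did, against 0.220% and 1.05%. The WT share of members was above that of peaks of like width that met H3K36me3 in replicate 1, with 10.5% and 6.37% under 2 kb, 5.24% and 3.37% at 2 to 4 kb, 11.1% and 6.20% at 4 to 6 kb, and 21.7% and 13.0% at 6 kb or more. In replicate 2 the same shares were 9.52% and 13.1%, 8.38% and 6.28%, 7.78% and 11.0%, and 13.3% and 17.1%. The rule asked for WT H3K36me3 at the midpoint, which favours H3K36me3 WT difference peaks among members. In WT replicate 1, H3K36me3 was listed at 84.5% of members, against 48.7% of the other peaks that met it in WT replicate 2. The higher WT shares are therefore not read as a result about the members.

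**Figure D4:**
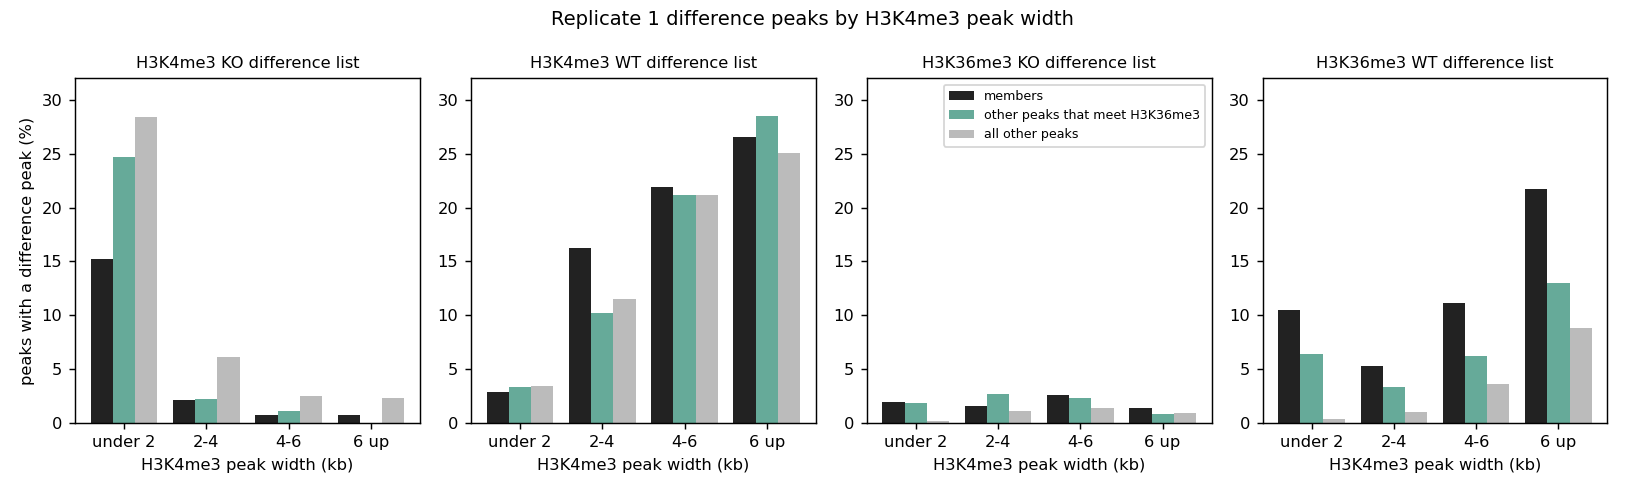
Bars give the share (%) of H3K4me3 WT replicate 2 peaks that held a replicate 1 difference peak, by H3K4me3 peak width in kb, for members, other peaks that met H3K36me3 and all other peaks. H3K4me3 KO difference peaks are most frequent under 2 kb in each group, and H3K4me3 WT difference peaks at 6 kb or more.

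The 9 members with a KO difference peak in both replicates were led by chr3:122212653-122215538. Its H3K4me3 spanned 1916 and 2886 bp in KO, against 1274 and 2886 bp in WT. The H3K36me3 within it spanned 326 and 315 bp in KO, against 360 and 1565 bp in WT. The peak was listed in every H3K4me3 library. The second, chr15:95761261-95762710, was wholly inside H3K36me3 in WT, and H3K36me3 spanned 0 and 0 bp in KO, against 1450 and 1450 bp in WT. Its H3K4me3 spanned 1419 and 1450 bp in KO against 0 and 1450 bp in WT, and its H3K36me3 held a WT difference peak in replicate 1, so the difference lists named opposite genotypes for the marks there.

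The other leading KO members were chr4:59237400-59238424, chr14:46096821-46097778 and chr13:104827011-104827859, all between 849 and 1025 bp wide. None of the 3 was listed in H3K4me3 WT replicate 1, and all were listed in both KO libraries. Listing in KO is favoured by the choice of members with KO difference peaks, as is absence from WT under the reading used here. H3K36me3 was not listed at any of them in KO. It covered 930 and 1013 bp of the chr4 member in WT, and 0 bp of the others in WT replicate 1.

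Of the 6 members with a WT difference peak in both replicates, the leading 5 were 4495 to 6118 bp wide and had the score 3100. At chr9:58155846-58161963, H3K4me3 spanned 2386 and 3816 bp in KO, against 4746 and 6118 bp in WT. The H3K36me3 there spanned 0 and 0 bp in KO, against 2924 and 3788 bp in WT, and the nearest H3K36me3 peak in KO was 316091 and 77641 bp from the midpoint. Here H3K4me3 was listed in both genotypes, and the H3K36me3 beside it in WT only.

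A similar pattern held at chr3:66023242-66027789, where H3K4me3 spanned 0 and 2697 bp in KO, against 2743 and 4548 bp in WT, and H3K36me3 spanned 0 and 0 bp in KO, against 2486 and 3724 bp in WT. At chr3:83568937-83574390, H3K36me3 spanned 0 and 3057 bp in KO, against 3328 and 4045 bp in WT, and H3K27me3 spanned 1091 bp in KO replicate 2. These 3 were the only members with a WT difference peak of both marks in both replicates, and no member had KO difference peaks of that kind. The KO count could only be 0, as no member held an H3K36me3 KO difference peak in both replicates. Neither count has a share over all peaks beside it, and neither is read as a result about the members. The remaining leaders, chr19:34326309-34330803 and chr2:151736233-151741888, carried H3K36me3 in WT replicate 2 alone, over 2599 and 2549 bp.

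**Figure D5:**
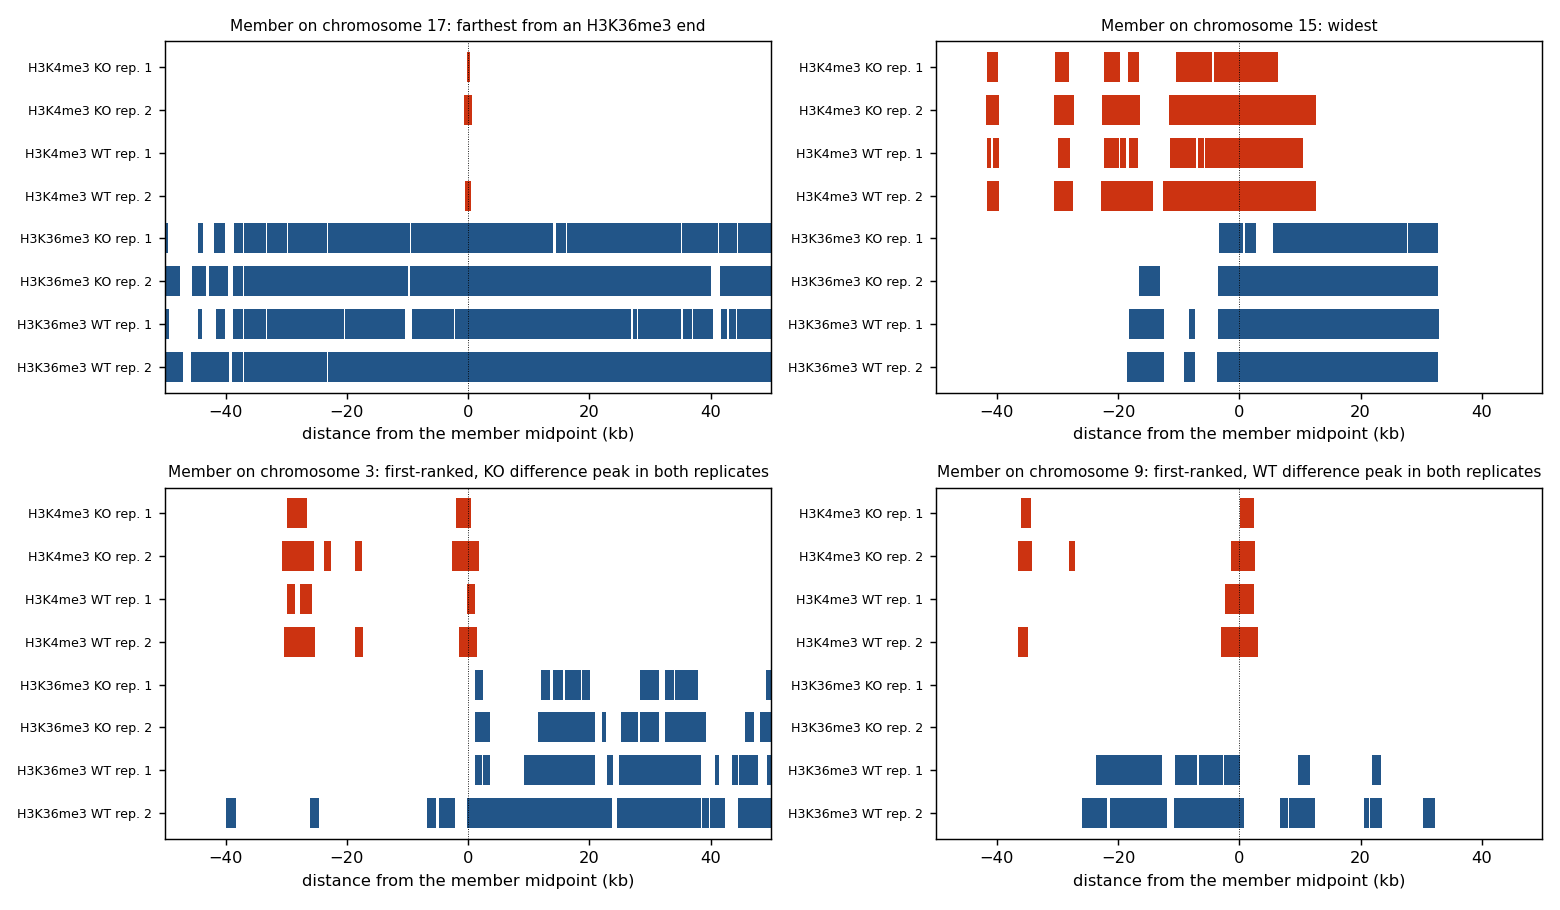
Peaks of H3K4me3 (red) and H3K36me3 (blue) in the 8 libraries within 50 kb of 4 members, by distance from the member midpoint in kb (dotted line). The chromosome 17 member sits within H3K36me3 in all 4 libraries, the chromosome 15 and chromosome 3 members sit at an end of H3K36me3, and the chromosome 9 member has H3K36me3 beside it in WT but in neither KO library.

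H3K27me3, the mark of Polycomb repressive complex 2, which methylates silent developmental genes, was rare at members. It overlapped 0 and 8 of the 709 in KO (0% and 1.13%) and 0 and 4 in WT (0% and 0.564%), and a count of 0 of 709 allows a share of up to 0.423%. Over all 17755 peaks the shares were 0.721% and 6.84% in KO and 4.11% and 11.0% in WT. The other peaks that met H3K36me3 had similarly low shares, at 0.133% and 1.76% in KO, against 0.232% and 1.59% in WT. The H3K27me3 lists of replicate 1 held only 698 peaks in KO and 2533 in WT, against 17471 and 14523 in replicate 2, and the part of list length in the zeros was not tested. The members averaged 0.564% ± 0.798 in KO and 0.282% ± 0.399 in WT (SD, n = 2 each), a difference of 0.282 percentage points that was within the spread between libraries (exact two-sided permutation p = 1, smallest possible p 0.333). The difference was -0.282 points without KO replicate 2, 0 without WT replicate 1 and 0.846 without KO replicate 1. None of the 56 members wholly inside met H3K27me3 in any library, and 0 of 56 allows a share of up to 5.36% in each. That limit lies above the share of all members in every library, so the zero is not read as a trait of enclosed peaks.

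In all, 10 members met H3K27me3 in at least 1 library, and the 5 widest of these met it over 154 to 1523 bp. It covered 154 bp of chr3:86972389-86979895 in KO replicate 2 and 229 bp of chr6:87280462-87286297, and neither was covered in WT. At chr13:112274639-112281560 it covered 516 bp in KO replicate 2 and 697 bp in WT replicate 2. At chr8:71403183-71408727 it covered 1523 bp in KO replicate 2 and 0 bp in WT, and at chr8:94321375-94326833 it covered 1325 bp in KO replicate 2 and 660 bp in WT replicate 2. At the chr3 member an H3K36me3 WT difference peak of replicate 1 covered 5476 bp where that library's own H3K36me3 list covered 0 bp. All 5 crossed or reached past an end of H3K36me3 and had the score 3100.

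The same rule was applied within each library to see how far the set depends on the lists. It gave 218 peaks in KO replicate 1 (1.34% of 16267), 451 in KO replicate 2 (1.94% of 23215) and 375 in WT replicate 1 (3.05% of 12314), beside 709 (3.99%) in WT replicate 2. Of these, 183 (83.9%), 360 (79.8%) and 328 (87.5%) overlapped a member. The members they met numbered 179, 358 and 315, or 25.2%, 50.5% and 44.4% of the 709. Peaks wholly inside H3K36me3 numbered 6 (2.75% of the peaks by the rule) and 41 (9.09%) in KO and 27 (7.20%) in WT replicate 1. They were again narrow, which enclosure from end to end favours by definition. Their medians were 1171.5 and 1267 bp in the KO libraries, against 812 bp in WT replicate 1. All peaks by the rule had medians of 3397.5 and 4472 bp in the KO libraries, against 3381 bp in WT replicate 1.

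The prevalence of wide peaks across an end of H3K36me3 thus held in each library. The identity of the enclosed peaks did not carry over to the same extent. Of the 56 members wholly inside, 4 overlapped a peak wholly inside by the same rule in KO replicate 1, 12 did in KO replicate 2 and 0 did in WT replicate 1. By chromosome, the share of H3K4me3 peaks that were members ran between 2.40% on chromosome 12 and 6.74% on chromosome 19, where 45 of 668 peaks were members.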

How the data were processed

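The submitters' processing notes name Bowtie 0.12.7, the mm9 build and MACS, with no MACS version. For each of 12 ChIP libraries there is a peak list, called against whole-cell extract per the file names, and a difference list. The only value per peak is a score that the authors deposited. Scores were at least 80, their formula is not stated, and they were used only within a list. Depth is unknown. The 4 extract samples had no files here.

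Overlaps needed at least 1 bp, and positions are printed 1-based. Shares carry 95% Wilson intervals. The code was tested on simulated intervals. Python 3.11.15, numpy 2.4.6, pandas 2.3.3 and scipy 1.17.1 were used. H3K27me3 shares were compared with an exact permutation test over libraries. The RefSeq tables at hand are for another build, so no gene names or sequences are given.

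The members, width bands and named regions were chosen with earlier results of these data known. Named regions were 5 each of the deepest, the widest, the widest listed in no other H3K4me3 library, those with a KO or a WT difference peak in both replicates ranked by mean score percentile, and the widest with H3K27me3. The first 3 H3K36me3 peaks with most members and the peaks nearest to the rule's border were also named. Alternatives changed score limits, overlap, joining of H3K36me3 peaks and the libraries used.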

Additional observations from a re-analysis of the deposited data

How the results depend on the processing

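The number of members depended most on what counts as inside. It was 56 when the whole peak had to lie inside H3K36me3, 191 when the midpoint had to be 1 kb from either end, 1123 when H3K36me3 peaks under 3 kb apart were joined and 3720 with any overlap. It stayed within 657 to 725 with doubled score limits on either mark or with chromosome X. The share listed in all 3 other H3K4me3 libraries (81.2%) was 73.3% when 50% of the width had to be covered, 87.7% for members of at least 2 times the lowest score, 5.36% for members wholly inside and 87.7% without them, a split chosen after seeing the data, and 81.2% to 84.6% with 1 library left out. The share with the midpoint inside H3K36me3 in all 3 other libraries (34.4%) was 64.6% by any overlap, 38.8% after joining and 36.4% to 45.6% with 1 library left out, the highest without KO replicate 1. The count of members with a KO difference peak in both replicates (9) was 3 with the doubled score limit, and 16 and 23 in replicate 2 and replicate 1 alone. The WT count (6) was 15 and 131 in the same order. Leaving out replicate 2 thus moved the WT count most. The H3K27me3 difference (0.282 points) ran between -0.282 without KO replicate 2 and 0.846 without KO replicate 1, and was 0 without WT replicate 1. With the replicate block it was 0.282 (exact sign-flip p = 1, smallest possible p 0.5), and same-numbered libraries share only a number. The causes were not tested.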
